A study of Mus musculus with 8 samples.

Results

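The genes described here encode Polycomb repressive complexes 1 and 2 (PRC1 and PRC2) and the Bap1 deubiquitinase complex (PR-DUB), and they were taken by gene symbol from a list of 39 names. All 39 were present among the 19429 genes of the deposited table, with 12 genes of PRC2, 24 of PRC1 and 3 of PR-DUB. The rule for choosing them used the symbol and no measured value, though the list was drawn up with earlier results of these data known.

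PRC2 places methyl groups on lysine 27 of histone H3 and PRC1 places ubiquitin on histone H2A, and both marks lie on silent developmental genes of embryonic stem cells. Canonical PRC1 contains a CBX protein that binds the PRC2 mark and a PHC protein that joins complexes to each other, whereas variant PRC1 contains RYBP or YAF2 and reaches chromatin by other means. PR-DUB removes the ubiquitin that PRC1 adds, with BAP1 as its enzyme and an ASXL protein as the subunit that activates it, and BAP1 is also known to bind HCFC1 and OGT, the O-GlcNAc transferase whose partnership with TET1 was the subject of the study.

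The RNA of the samples described came from LF2, a line of mouse embryonic stem cells, grown in medium with LIF and serum. In these cells both alleles of Tet1 were edited so that TET1 ended in a FLAG tag followed by a separately translated fluorescent protein. The samples described were 8 libraries, with 4 from wild type (WT) lines 2 and 5 and 4 from lines 7 and 8, whose TET1 carried the D2018A substitution that weakens binding to OGT. Each line was a clone and gave 2 technical replicates. By the study's account, the WT lines also carried a deletion away from the edited site that the D2018A lines lacked. The means used below also include 4 libraries beyond these 8, by the read steps described under processing. The line and genotype of those 4 were not determined here.

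The values below are levels over the whole experiment and not differences between WT and D2018A cells. For each gene the values hold a single mean of normalised counts (the count of each library divided by that library's size factor) over all libraries of the authors' fit. A gene's level is that mean divided by the kilobases covered by its annotated exons, so that long and short genes can be set side by side. Values of single libraries were not analysed here, so no gene has a standard deviation or a test. Where an interval follows a mean or a level, it is a 95% exact Poisson interval. Where it follows a ratio, it is a 95% exact binomial interval on the reads of both genes, scaled by their lengths. Such intervals cover counting error only and not the spread between lines or libraries. The depth behind them is a lower limit on the reads of each gene. In bulk RNA a smaller number of expressing cells and less RNA in each cell cannot be told apart.

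The cells had the transcripts of embryonic stem cells. All 12 stem cell markers lay above the median protein-coding gene, with a summed level of 22195 normalised counts per kilobase, a median of 1371 and a range from 123 for Dppa4 to 5903 for Utf1. The 4 feeder fibroblast markers among the listed genes summed to 82.4, with Thy1 at 64.8, above the protein-coding median, and the collagen genes Col1a1 at 17.5, Col1a2 at 0.055 and Col3a1 at 0.0095. The 5 primitive endoderm markers summed to 126, most of it from Sox7 at 100.2, the only one above the protein-coding median. The 6 mesoderm and neural markers summed to 124, with Eomes at 47.8 and Sox1 at 41.2 above that median. The 3 trophectoderm markers summed to 7.64, all below it.

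Transcripts of the Polycomb and PR-DUB genes were mostly more abundant than those of an average gene. Their median level was 108 normalised counts per kilobase, 2.96 times the median of 36.4 over 14873 protein-coding genes of known length whose mean was 1 or more. Above that median stood 35 of the 39, and 19 (48.7%) reached the upper quartile of 125. The 4 below it were the PRC2 accessory gene Aebp2, the PRC1 ubiquitin ligase gene Ring1, and Pcgf5 and Cbx8. Near the median this depended on the length, since Aebp2 and Ring1 stood at 1.08 and 1.02 times the median with the longest coding transcript, where Yaf2 fell to 0.957, and Aebp2 stood at 1.90 and Bcorl1 at 0.835 with the coding length. At the other end, 7 genes were in the top 10% of protein-coding genes, above 339, namely Phc1, Rbbp4, Epop, Jarid2, Pcgf2, Cbx7 and Mga. From Phc1 at 2916 to Cbx8 at 0.832, the levels of the 39 genes differed by 3506-fold. These counts describe the list, and no test was made of whether a list of this size stands apart from other genes.

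**Figure D1:**
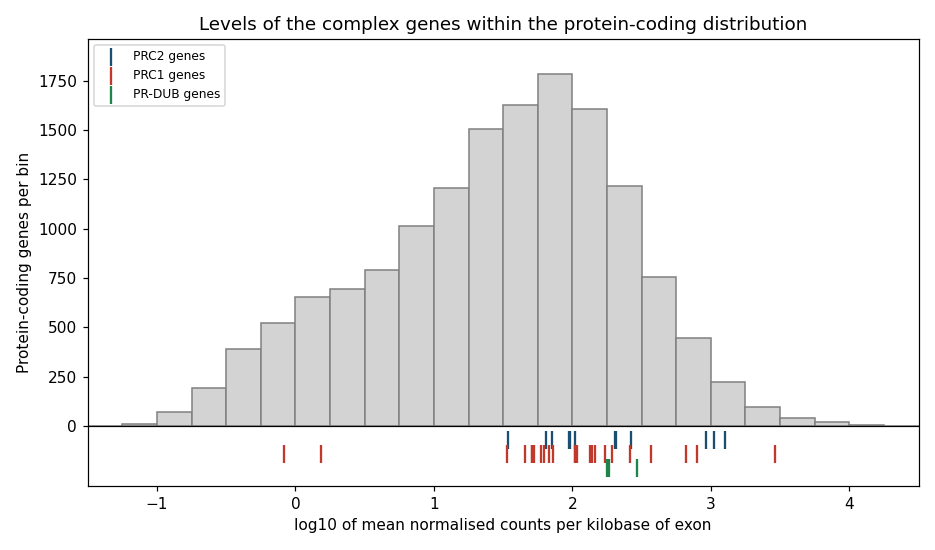
Number of protein-coding genes (vertical axis) in each interval of log10 mean normalised counts per kilobase of exon (horizontal axis), with a tick under the histogram for each PRC2, PRC1 and PR-DUB gene. Most ticks lie above the protein-coding median of 36.4 normalised counts per kilobase, many of them where the histogram is tallest, the PR-DUB ticks lie close together, and 2 PRC1 ticks, Cbx8 at 0.832 and Pcgf5 at 1.53 normalised counts per kilobase, stand far to the left.

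By complex, the median level was 154 for PRC2 (4.23 times the protein-coding median), 104 for PRC1 (2.87 times) and 183 for PR-DUB (5.02 times). At or above the upper quartile were 6 of the 12 PRC2 genes, 10 of the 24 PRC1 genes and 3 of the 3 PR-DUB genes. PRC1 held both the highest and the lowest gene, so its members spanned 3506-fold, against 36.8-fold in PRC2 and 1.65-fold in PR-DUB. These spans rest on 24, 12 and 3 listed genes, and a span tends to widen with the number of genes. Asxl3, a paralog of Asxl1 and Asxl2 that is outside the list, was at 3.35.

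**Figure D2:**
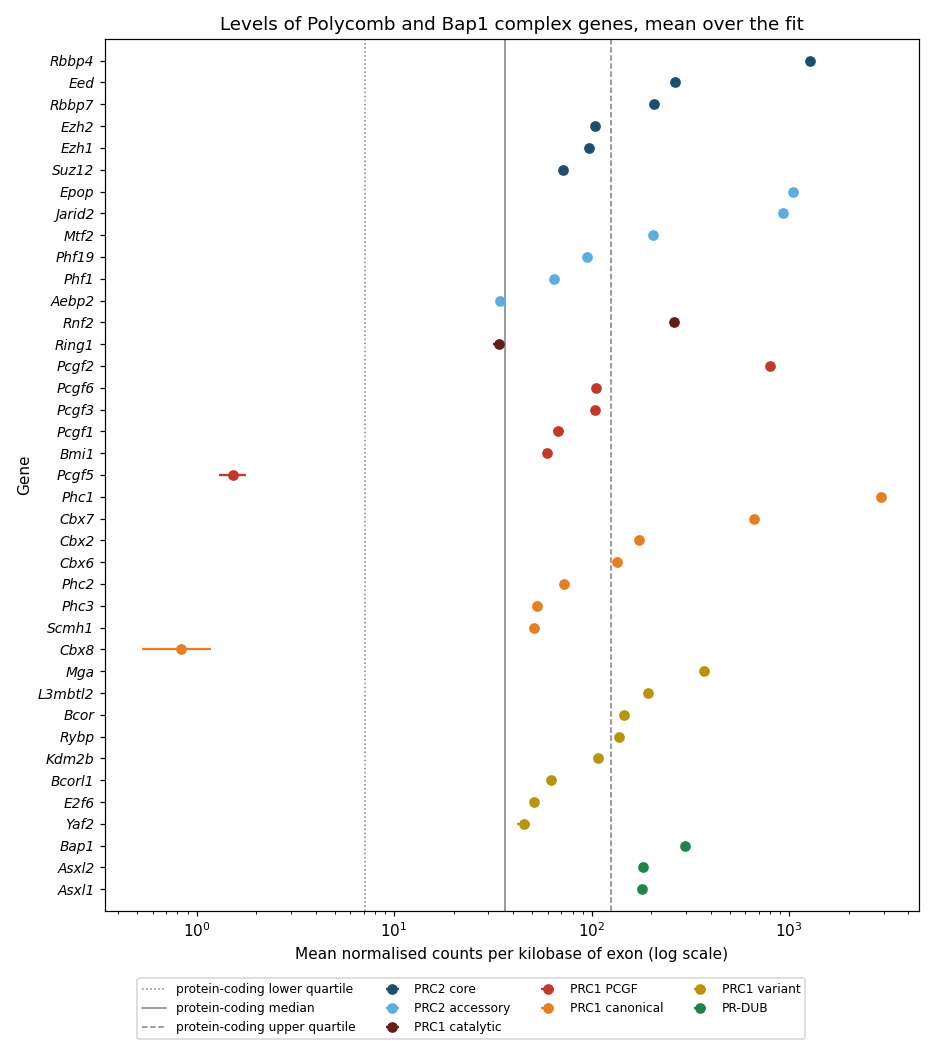
Level of each of the 39 genes, as mean normalised counts per kilobase of exon on a log scale, coloured by subgroup, with 95% Poisson intervals for counting error (mostly smaller than the points) and the quartiles of protein-coding genes as vertical lines. Phc1 at 2916 is farthest to the right, and only Pcgf5 and Cbx8 fall below the protein-coding lower quartile of 7.08.

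The PRC1 genes held the greatest contrast, and the promoters of 4 of them are shown as examples of differing levels. Phc1 and Cbx7 were the leading genes of canonical PRC1, and Cbx8 was the lowest of all 39. Ring1 was the lower of the 2 ligase genes and lay near the protein-coding median. Each sequence is from RefSeq on GRCm38.p6, covers 300 bases around the annotated start, most of them upstream, on the gene's own (minus) strand, and has CG dinucleotides in capitals. The windows are chr6:122340178-122340477 for Phc1, chr15:79932597-79932896 for Cbx7, chr11:119040864-119041163 for Cbx8 and chr17:34024631-34024930 for Ring1. They follow the starts in RefSeq. In the gene coordinates used for the levels, Phc1 begins at 122340561 and Cbx7 at 79971119. The windows of Phc1 and Cbx7 therefore lie inside those gene models, and other starts of these genes are not shown.

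Phc1: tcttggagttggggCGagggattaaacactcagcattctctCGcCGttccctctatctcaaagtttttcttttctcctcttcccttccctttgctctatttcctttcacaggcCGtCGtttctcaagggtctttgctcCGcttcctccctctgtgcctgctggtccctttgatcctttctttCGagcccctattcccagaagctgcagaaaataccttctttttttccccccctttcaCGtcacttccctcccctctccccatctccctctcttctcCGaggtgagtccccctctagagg

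Cbx7: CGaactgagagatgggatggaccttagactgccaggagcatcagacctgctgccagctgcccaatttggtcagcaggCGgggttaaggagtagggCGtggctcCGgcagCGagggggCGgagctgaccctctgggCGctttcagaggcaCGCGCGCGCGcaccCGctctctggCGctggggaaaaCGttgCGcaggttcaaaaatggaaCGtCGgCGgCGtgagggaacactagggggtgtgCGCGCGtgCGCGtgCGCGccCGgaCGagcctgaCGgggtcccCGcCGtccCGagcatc

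Cbx8: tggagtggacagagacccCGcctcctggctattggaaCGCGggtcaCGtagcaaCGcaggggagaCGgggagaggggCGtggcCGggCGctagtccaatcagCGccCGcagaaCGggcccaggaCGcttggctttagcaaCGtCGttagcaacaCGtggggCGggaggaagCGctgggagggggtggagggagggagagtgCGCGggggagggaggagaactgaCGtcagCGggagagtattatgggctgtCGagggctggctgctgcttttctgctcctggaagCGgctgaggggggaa

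Ring1: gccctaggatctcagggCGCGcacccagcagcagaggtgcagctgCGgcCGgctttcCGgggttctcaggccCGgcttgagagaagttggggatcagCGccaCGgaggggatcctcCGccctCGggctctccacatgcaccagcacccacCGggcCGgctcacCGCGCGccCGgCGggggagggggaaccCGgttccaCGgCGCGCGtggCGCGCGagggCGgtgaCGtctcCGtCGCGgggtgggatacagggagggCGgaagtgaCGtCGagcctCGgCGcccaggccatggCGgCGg

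The window of Phc1, the most abundant gene, had 9 CG dinucleotides, a GC content of 52.0% and a ratio of observed to expected CG of 0.53. Cbx7 had 33, 67.3% and 0.99. The low genes were also rich in CG, with 24, 66.0% and 0.83 for Cbx8 and 37, 74.0% and 0.91 for Ring1. The motif searched was CG, which reads the same on both strands and cannot overlap itself, and 98.5% of protein-coding windows of this length held at least 1. Of the 39 genes, 34 had a window in RefSeq, 47 windows in all, and a ratio of at least 0.6 was found in 38 windows (80.9%), against 59.2% of 16254 windows of listed protein-coding genes. The median number of CG was 24 in the windows of these genes and 18 in protein-coding windows. Over the 26 genes with a single window, Spearman's rho between the number of CG and the level was -0.04 (Pearson's r with log2 level -0.07), whereas over 9119 protein-coding genes with a single window it was 0.30 (0.29). These correlations are across genes of the same libraries, which are not independent replicates, and are given as descriptions.

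In the PRC2 core, which consists of an EZH enzyme, EED, SUZ12 and a histone-binding RBBP protein, all 6 genes were above the protein-coding median. Rbbp4, whose product also serves histone deacetylase and nucleosome remodelling complexes, led with a mean of 11073 normalised counts and a level of 1266 per kilobase. Its paralog Rbbp7 had a level of 207 (mean 602), and the ratio between them was 6.12 (5.95 to 6.30). Rbbp4 shared 17.2% of its 50-base exon stretches with transcripts of other genes, and its exons overlapped those of the noncoding gene Gm26722 over 796 bases and of the protein-coding gene Sync over 782 bases, both on the opposite strand, and Rbbp7 shared 11.2%, chiefly with the pseudogene Gm6382. With those stretches left out of the lengths, but their reads kept in the means, the ratio was 6.57. It was 9.37 on the longest coding transcript and 18.4 on coding length.

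The 2 genes for the catalytic subunit were nearly equal. Ezh2, which encodes the more active methyltransferase, had a mean of 693 (675 to 711) and a level of 104, and Ezh1 had a mean of 717 (699 to 735) and a level of 96.4. The ratio of levels, 1.08 (1.04 to 1.12), went to 1.46 when each mean was divided by the longest coding transcript and to 0.97 when it was divided by the coding length, so the order of the pair was not fixed by these data. Eed, whose product reads the methyl mark, had a level of 263 (mean 1007). Suz12, the scaffold of the complex, was the lowest core gene at 71.8 (mean 355), and Eed was 3.66 times and Ezh2 1.45 times as high. On every length used, the levels of Rbbp4 and Eed stayed above that of Suz12, with Eed at least 3.66 times as high, and 2.84 times without division by length.

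PRC2 works with 2 alternative sets of accessory subunits, a Polycomb-like protein (MTF2, PHF1 or PHF19) with or without EPOP, or JARID2 with AEBP2. Epop, which links PRC2 to elongin, had the highest level of the accessory genes at 1047 (mean 2422). Jarid2, which encodes a DNA-binding subunit without demethylase activity, had a level of 928 and the larger mean, 9019. The ratio of Epop to Jarid2 was 1.13 on the exon length and 0.27 when the means were not divided by length, so which of the 2 led depended on the length. Aebp2, the partner of Jarid2, was just below the protein-coding median on exon length, at 34.4 (mean 339), and above it on the other 2 lengths, 27 times lower than Jarid2 and at least 10.9 times lower on every length used.

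Among the Polycomb-like genes, which bind CG-rich DNA, Mtf2 led with 56.2% of the summed level of the family. Its level was 204 (mean 1162), against 94.5 for Phf19 (mean 476) and 64.2 for Phf1 (mean 224), which are ratios of 2.16 (2.08 to 2.24) from Mtf2 to Phf19 and 1.47 (1.40 to 1.55) from Phf19 to Phf1. Phf1 overlapped the exons of Cuta, a protein-coding gene on the opposite strand, over 1370 bases or 39.3% of its exon length. The strand setting of the counting is not given in the sources used here, so the part of the Phf1 mean that came from Cuta was not tested. With stretches shared with other genes left out of the length but their reads kept in the mean, the ratio of Phf19 to Phf1 was 1.06. That setting could only raise Phf1, so it does not show how many of its reads came from Cuta.

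PRC1 has a ubiquitin ligase core made of RING1 or RNF2 (RING1A or RING1B) with 1 of 6 PCGF proteins, and the PCGF protein sets the kind of complex. Rnf2 had a level of 262 (mean 1080) and made up 88.5% of the summed level of the pair. Ring1 had a level of 33.9 (mean 110), just under the protein-coding median, and Rnf2 was 7.72 times as high (7.22 to 8.26), with a range of 6.24 to 11.9 over the lengths used.

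The PCGF genes were led by Pcgf2 (MEL18), a subunit of canonical PRC1, with a level of 796, a mean of 2808 and 70.2% of the family. On coding length Pcgf2 held 54.5% and was 2.00 times as high as Pcgf3, the next gene. Without division by length it held 59.8% and was 2.83 times as high. The closest paralog of Pcgf2, Bmi1 (PCGF4), takes the same place in canonical PRC1. Bmi1 had a level of 59.3 (mean 236), which was 13.4 times lower and between 11.3 and 17.2 times lower over the lengths used. Pcgf6, the subunit of the complex with MGA and L3MBTL2, and Pcgf3 had levels of 105 (mean 528) and 104 (mean 992), a ratio of 1.01 (0.98 to 1.05) on exon length, against 1.90 on the longest coding transcript and 0.36 on coding length. Pcgf1, the partner of KDM2B and BCOR, had a level of 67.8 (mean 112). Pcgf5, whose product forms complexes much like those of PCGF3, was at 1.53 with a mean of 19.3 (16.5 to 22.4), 38.7 times lower than Bmi1 and 9.63 times lower when the coding length was used. The order of Pcgf6, Pcgf3, Pcgf1 and Bmi1 among themselves depended on the length. Bmi1 and Pcgf1 shared 16.7% and 15.3% of their stretches with other genes, chiefly with the pseudogenes Gm5946 and Gm8930, and how reads from those stretches were assigned was not tested.

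Canonical PRC1 carried the highest transcript of the list. Phc1 (Polyhomeotic homolog) had a mean of 15444 normalised counts (15361 to 15526) and a level of 2916, rank 78 among protein-coding genes, and gave 95.9% of the summed level of the PHC genes. Phc2 was at 72.2 (mean 510) and Phc3 at 52.9 (mean 924), so Phc1 was 40.4 times as high as Phc2 (39.2 to 41.6) and at least 25.5 times as high on every length used. Phc2 and Phc3 changed places with the length, with a ratio of 1.37 on exon length and 0.64 on coding length. Scmh1, which encodes a sex comb on midleg protein that joins PHC proteins, was at 51.2 (mean 396). Phc1 and the pluripotency gene Nanog, at a level of 2572, lie on chromosome 6 with 367 kilobases and 7 listed genes between them.

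The CBX genes encode the chromodomain readers of the PRC2 mark. Cbx7 had a level of 664 (mean 4307) and 68.3% of the summed level of the 4 CBX genes, and it was 3.84 times as high as Cbx2 (3.74 to 3.94), which was at 173 (mean 736), and up to 12.1 times as high on coding length. Cbx6 was at 135 (mean 1429), and its order against Cbx2 turned with the length, with a ratio of Cbx2 to Cbx6 of 1.28 on exon length and 0.41 on coding length. Cbx8 had a mean of 3.06 (1.95 to 4.37), which rests on at least 26 reads over the fit, and a level of 0.832, above only 6.78% of protein-coding genes. Cbx6 exceeded it 162-fold (113 to 254). Cbx2 and Cbx8 are neighbours on chromosome 11 with 5.03 kilobases between them, and Cbx6 and Cbx7 are adjacent on chromosome 15 with 81.1 kilobases between them. Adjacent CBX genes therefore stood 208-fold apart in the first case and 4.93-fold in the second.

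All 8 genes of variant PRC1 were above the protein-coding median on exon length (though not Yaf2 on the longest coding transcript or Bcorl1 on coding length), with a median level of 123 and a range of 8.15-fold, narrower than that of canonical PRC1. Mga, which encodes the scaffold and DNA-binding protein of the complex with PCGF6, was highest at 369 (mean 5660). Among other subunits of that complex, L3mbtl2 was at 193 (mean 1148), and E2f6, above only Yaf2 among the 8, was at 51.1 (mean 289). Mga was 1.91 times as high as L3mbtl2 (4.93 without division by length). It was 7.22 times as high as E2f6 (1.75 on coding length and 19.6 without division by length). L3mbtl2 overlapped exons of Chadl on the opposite strand over 17.2% of its length. For the complex with PCGF1, Bcor was at 146 (mean 1263), Kdm2b, which encodes the CG-binding subunit that brings the complex to unmethylated promoters, at 108 (mean 1171), and Bcorl1 at 61.9 (mean 527). Bcor made up 70.2% of the pair Bcor and Bcorl1, both on the X chromosome, with a ratio of 2.35 (2.27 to 2.44). Rybp, which encodes the subunit that stimulates the ligase, was at 138 (mean 652) and its paralog Yaf2 at 45.3 (mean 84.8), a ratio of 3.04 (2.82 to 3.29) that went to 6.04 on coding length and 7.69 without division by length. Rybp shared 8.93% of its stretches with other transcripts, chiefly with the pseudogene Rybp-ps.

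The 3 PR-DUB genes lay closest together. Bap1, the deubiquitinase itself, lies on the plus strand at chr14:31251450-31259944 (GRCm38) and had a mean of 1381 normalised counts (1357 to 1406) and a level of 295, above 88.4% of protein-coding genes. Asxl2 had a mean of 2910 (2874 to 2946) and a level of 183, and Asxl1 a mean of 1331 (1307 to 1355) and a level of 179. The ratio of Asxl2 to Asxl1 was 1.02 (0.999 to 1.04) on exon length, which lies within counting error, and 2.42 on coding length, since the annotated exons of Asxl2 cover 15941 bases against 7444 for Asxl1. Bap1 was 1.65 times as high as Asxl1 per kilobase of exon, between 1.62 and 2.16 times over the lengths used and 1.04 times without division by length. The third paralog, Asxl3, was not among the 39 names and was at 3.35, 54.4 times below Asxl2. Bap1 shared no 50-base stretch with another gene, and Asxl1 and Asxl2 shared 2.00% and 1.22%.

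**Figure D3:**
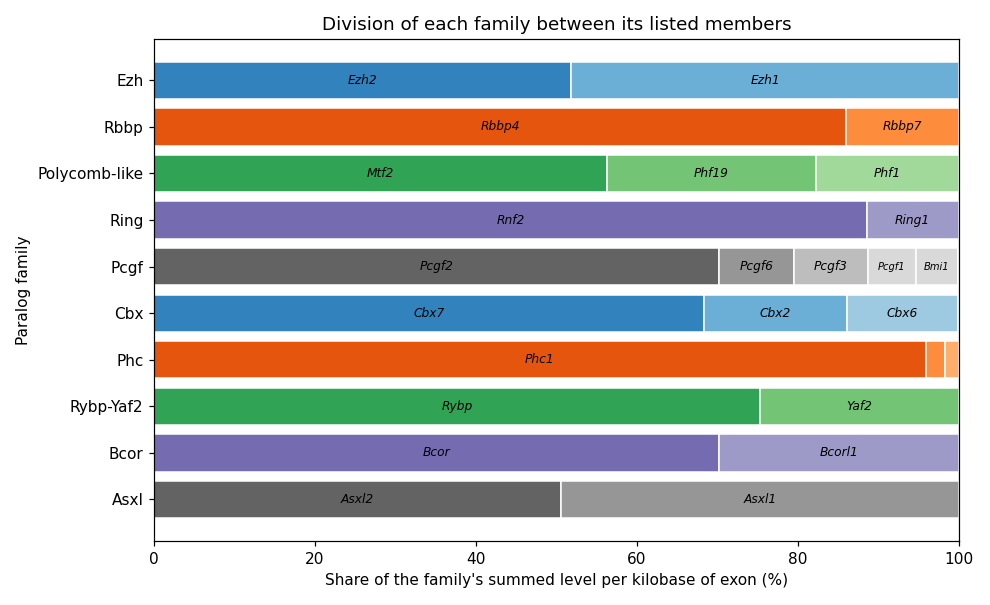
Share of each gene in the summed level per kilobase of exon of its paralog family, in percent, with a bar for each of 10 families and segments in order of level from left to right. Phc1 fills 95.9% of its bar, whereas Ezh2 and Asxl2 fill 51.8% and 50.5%, and the unlabelled segments are Phc2 and Phc3, with Pcgf5 (0.135%) and Cbx8 (0.0855%) too thin to see.

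On exon length, the division of the paralog families therefore ran from nearly even to nearly complete. The leading gene held 95.9%, 88.5% and 86.0% in the Phc, Ring and Rbbp families, between 68.3% and 75.2% in the Rybp, Pcgf, Bcor and Cbx families, and 56.2%, 51.8% and 50.5% in the Polycomb-like, Ezh and Asxl families. The leading gene was the same on all 4 other scalings in 9 of 10 families, the exception being Ezh. The size of its share depended on the length, so the order of the families was not fixed. On coding length Asxl2 held 70.7%, Rybp 85.8% and Pcgf2 54.5%.

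**Figure D4:**
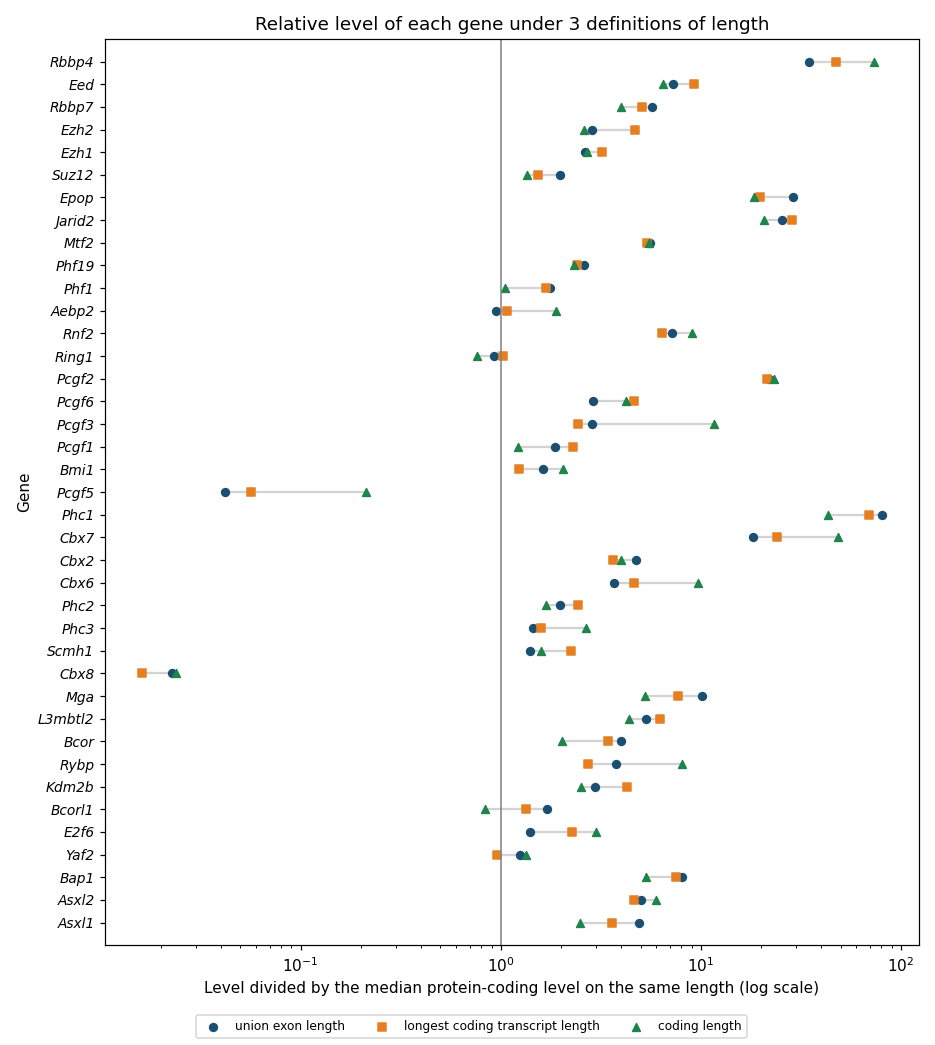
Level of each gene divided by the median protein-coding level, on a log scale, with the mean divided by the union of exons, by the longest coding transcript or by the coding length, joined by a line for each gene. Phc1 and Rbbp4 stay far to the right and Cbx8 and Pcgf5 far to the left of 1 on all 3 lengths, and the widest line is that of Pcgf5, whose value is 5.06 times as high on coding length as on exon length.

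Of 29 further genes for partners of these complexes, all were in the table, 23 were above the protein-coding median, 12 reached the upper quartile, and their median level was 111, against 108 for the Polycomb and PR-DUB genes. The highest was Hcfc1, the host cell factor bound by both BAP1 and OGT, with a level of 3725 and a mean of 31142. That level was 12.6 times that of Bap1, against 7.85 times on coding length and 22.5 times without division by length. Ogt was at 603, 2.04 times as high as Bap1, between 2.04 and 2.44 times over the lengths used and 3.51 times without division by length. Foxk2, whose product brings BAP1 to DNA, was at 466, and Usp7, which encodes a deubiquitinase found with PRC1, at 634. Csnk2b and Wdr5, which serve several chromatin complexes beside PRC1, were at 1711 and 946, and Max, the partner of MGA, was at 606. Fbrsl1, Auts2 and Fbrs, whose products belong to the PCGF3 and PCGF5 complexes, differed widely on exon length, at 577, 25.8 and 95.7. Fbrsl1 was the highest of them on every length used, but the place of Auts2 depended on the length. Auts2 and Fbrs were at 109 and 112 on the longest coding transcript and at 194 and 158 on coding length. Their means without division by length were 590 and 466. Sfmbt2 was at 343 and Sfmbt1 at 21.3. Dcaf7 and Skp1a were at 270 and 161, and the heterochromatin protein genes Cbx1 and Cbx3, found with variant PRC1, at 113 and 4.06. Between 71.4 and 127 lay Mbd6 at 127, Foxk1 at 117, Tfdp1 at 111, Hdac1 at 100.2, Csnk2a1 at 97.2, the PR-DUB partner Kdm1b at 85.9, Csnk2a2 at 78.7 and Hdac2 at 71.4. Of these, Hdac1, Csnk2a1 and Tfdp1 shared 35.5%, 32.5% and 16.8% of their stretches with other genes. How reads from those stretches were assigned was not tested. The level of Cbx3 rests on a mean of 24.3. Mbd5 and Lcor were near the median at 38.9 each. Scml2 and Scml4, relatives of Scmh1, were at 5.83 and 0.546, the latter being the lowest of the 29. The demethylases that remove the PRC2 mark were both above the median, with Kdm6a (UTX) at 307 and Kdm6b (JMJD3) at 120. Tet1, the edited gene, was at 1493, Tet2 at 921 and Tet3 at 48.3. The transcripts of Tet1 were 2.48 times as abundant per kilobase of exon as those of Ogt. The ratio was 1.78 on the longest coding transcript and 4.76 without division by length.

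The precision of counting was high for all but a few genes. A mean of at least 100 was found for 36 of the 39, and the counting error was under 5% of the mean for 37, from 0.27% for Phc1 to 19.4% for Cbx8. Exon overlap with another gene was found for 15 of the 39, in 14 cases with a gene on the opposite strand, and 7 genes shared over 10% of their stretches with other transcripts, and the part of those shared bases in the means was not tested.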

How the data were processed

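The authors aligned single-end reads of 50 bases from ribosomal RNA-depleted total RNA to GRCm38.p6 and counted them per gene with STAR 2.5.3a. They normalised the counts with DESeq2 1.20.0. The deposited signal used here is the authors' mean of normalised counts over all libraries of that fit, given for 19429 genes. The other columns hold the authors' own comparison of D2018A with WT cells (fold changes, standard errors, test statistics and p-values) and were not used, so no comparison of genotypes is made. The members and lists were chosen with earlier results of these data known.

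Gene IDs were matched to GENCODE vM21, with 19351 of 19429 found, and 36 of the 39 member coordinates were equal. Each mean was divided by the union of annotated exons in kilobases. Stretches of 50 bases also present in transcripts of another gene were counted for each gene. Percentiles are among protein-coding genes with a mean of at least 1. The smallest means fall on steps that a single read in a single library leaves. Steps shared by at least 20 genes gave 12 libraries with size factors of 0.726 to 1.47, a method tested on simulated data. Poisson intervals of means and levels and binomial intervals of ratios (95%) used 12 times the mean times the smallest size factor as the least number of reads. Every member was named with its mean, every family with its leading gene, and every gene of the lists of partners, demethylases and Tet genes with its level, except 1 partner gene that is not reported here and was left out of the list counts. Python 3.11.15, numpy 2.4.6, pandas 2.3.3, scipy 1.17.1 and matplotlib 3.10.9 were used.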

Additional observations from a re-analysis of the deposited data

Results flagged for a closer look

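The means carried the steps of 12 libraries, whereas the labels describe 8 samples, so 4 libraries of the authors' fit are outside the samples described. Each of the 12 steps was shared by 38 to 123 genes. Which genotype or line those 4 libraries came from was not determined here, and they contribute to every level given for the Polycomb and PR-DUB genes.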

How the results depend on the processing

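The levels were recomputed with other gene lengths. Relative to the median protein-coding gene, the median of the 39 genes (2.96) became 3.61 with the longest coding transcript. It became 3.38 without stretches shared with other genes. In that setting only the listed genes were shortened and the protein-coding median was kept, so values could only stay or rise. The median of PRC2 (4.23) became 4.89 with the longest coding transcript and 3.34 with the coding length. The median of PRC1 (2.87) became 2.59 with the longest coding transcript. The median of PR-DUB (5.02) became 4.61 with the longest coding transcript and 5.35 with the coding length. The share of Ezh2 against Ezh1 (51.8%) went to 49.3% with the coding length and 49.1% without division by length, which turned the order of the pair. The number of genes at or above the upper quartile (19) was 20 with no filter on low means, 16 with a mean of at least 10, 20 with the longest coding transcript and 24 without division by length. Single genes moved by over 1.5-fold in 4 cases, all upward, with the longest coding transcript, and in 18 cases, 9 up and 9 down, with the coding length, from 0.491-fold for Bcorl1 to 5.06-fold for Pcgf5. Without shared stretches, where values could only stay or rise, no gene moved by that much, and the greatest ratio was 1.39 for Phf1. The median of protein-coding genes was crossed by 3 genes with the longest coding transcript and by 2 with the coding length. No paired analysis was possible because 1 mean per gene over all libraries was used. For the same reason no library could be left out.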
